A study of Arabidopsis thaliana with 9 samples.

Results

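To ask which miRNA-guided cleavage signatures were still changed after plants had returned to normal temperature, the 3 Recovery libraries were compared with the 3 Control libraries, 6 of the 9 nanoPARE libraries of the series. Libraries were assigned by their titles (Rec1 to Rec3 and C1 to C3), and all listed lines were used. All came from whole 7-day-old Arabidopsis thaliana seedlings of the wild-type accession Col-0, with no transgene. Control seedlings were not heated. Recovery seedlings were held for 1 h at 37°C and then for 2 h at 22°C. The third group, HS, was taken directly after 1 h at 37°C, and its libraries shared the estimate of the spread. The 6 libraries held 2087 lines at 1301 sites in 1197 gene loci, of 3041 lines at 1662 sites in 1508 loci over all 9.

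Plant miRNAs guide an Argonaute protein, mainly AGO1, to a nearly complementary site in a target transcript, where the RNA is cut opposite the middle of the miRNA. The 3′ product keeps an uncapped 5′ end at that position, and nanoPARE (nano-parallel analysis of RNA ends) reads such ends from small amounts of RNA. Many conserved targets are transcription factors that set auxin responses, meristem maintenance and leaf growth, while heat shock protein transcripts are strongly induced by heat and are not classical miRNA targets. Each deposited line gives a miRNA, a transcript, a slice position and the signal there in RPM (read counts normalised to library size). It also gives the Allen score of the duplex (a mismatch penalty, 0 for a perfect match and 6 for the weakest pair listed), the fold over the local background and an adjusted p from the authors' pipeline. Sites missing from a library's list were given 0 RPM.

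The sites of the 4 known targets called lower (ARF10, ARF17, ARF8 and HAM2) are shown with those of their family members ARF16, ARF6, HAM1 and HAM3 and of AGO2, none of which passed the test, so that each can be read against its miRNA. In the miRNAs, written as RNA, capitals mark the seed (bases 2 to 8), and in the target sites, written as DNA on the transcript strand, capitals mark the bases opposite the seed.
miR160a-5p: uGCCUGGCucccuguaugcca
ARF10 site, chr2:12115741-12115761, plus strand, coding part of exon 2 of 4: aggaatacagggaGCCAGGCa
ARF17 site, chr1:29274189-29274209, plus strand, coding part of exon 2 of 3: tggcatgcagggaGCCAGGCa
ARF16 site, chr4:14704141-14704161, minus strand, coding part of exon 3 of 4: gggtttacagggaGCCAGGCa
miR171a-3p: uGAUUGAGccgcgccaauauc
HAM1 site, chr2:18619128-18619148, minus strand, coding, single exon: gatattggcgcggCTCAATCa
HAM2 site, chr3:22411544-22411564, minus strand, coding, single exon: gatattggcgcggCTCAATCa
HAM3 site, chr4:58411-58431, minus strand, coding, single exon: gatattggcgcggCTCAATCa
miR167a-5p: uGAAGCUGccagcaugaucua
ARF8 site, chr5:14633841-14633861, plus strand, coding part of exon 13 of 14: tagatcaggctggCAGCTTGt
ARF6 site, chr1:10686478-10686498, minus strand, coding part of exon 13 of 14: gagatcaggctggCAGCTTGt
miR403-3p: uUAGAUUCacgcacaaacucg
AGO2 site, chr1:11185223-11185243, plus strand, 3′ UTR in exon 3 of 3: ggagtttgtgcgtGAATCTAa
Coordinates are those of the sequence match in the TAIR10.1 genome of RefSeq. The 3 ARF sites of miR160a-5p share the seed match and differ outside it, and the 3 HAM sites are the same sequence. ARF8 and ARF6 each carry 1 mismatch to miR167a-5p within the seed, at miRNA position 2 counted from the 5′ end, and the other 7 sites shown carry none there. Of 40 known sites listed in any library, 24 could be placed in this way with the deposited Allen score and 16 could not, GRF3 and AFB2 among the latter.

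The lists were shallow. Taking the commonest RPM value of a library as 1 read gave implied totals of 2331769 to 3167323 reads in Control and 3236099 to 4609739 in Recovery, and sites of no more than 1 read made up 55.6% to 63.7% of a Control list and 54.1% to 64.1% of a Recovery list. A Control library listed 380 ± 53.1 pairs and a Recovery library 315 ± 56.5 (SD, n = 3), ranges that overlapped (two-sided exact permutation p = 0.3). The summed RPM of all listed sites was 298 to 333 in Control and 125 to 181 in Recovery, without overlap. The locus ATMG00020, mitochondrial by its identifier, held 7.76% to 13.9% of that sum in Control and 2.56% to 3.03% in Recovery, and without it the sums were 271 to 295 and 122 to 176 RPM. Because the totals differed, results are given as deposited, and also after rescaling each library to 1 common sum (rescaled libraries) where that changes them. No root marker (0 of 6) was listed, and 10 of 54 photosynthesis loci were, in lists that hold only candidate slice sites.

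Recovery seedlings had lower signal at sites of 4 conserved miRNA targets and of 3 other transcripts, and higher signal at sites of 2 small heat shock protein transcripts. Among 322 sites present in 3 or more of the 9 libraries, limma on log2(RPM + 1) called 9 at an adjusted p under 0.05 (2.80%), 7 lower in Recovery (2.17%) and 2 higher (0.621%). An unadjusted p under 0.05 was reached at 62 sites. The 7 lower sites were in the auxin response factors ARF10, ARF17 and ARF8, the meristem factor HAM2, the antenna protein LHCB1.3, the growth regulator TCTP and AT3G56020, which encodes ribosomal protein L41. Both higher sites were in small heat shock proteins, HSP17.6B and HSP17.4. Of the 9 called sites only the 4 known targets (ARF10, ARF17, ARF8 and HAM2) had the authors' adjusted p under 0.05 in any library. The other called sites are listed slice positions that did not stand out from their surroundings by that test. The median site differed by −0.15 on the log2 scale, and by −0.02 in rescaled libraries, where 5 sites were called, 2 lower (ARF10 and LHCB1.3) and 3 higher (HSP17.6B, HSP17.4 and a site of CA1). Single libraries weighed heavily, since the count was 1 without Control replicate 2 or Recovery replicate 1, 2 without Recovery replicate 2, 4 without Control replicate 3 or Recovery replicate 3, and 14 without HS replicate 2. These fits repeated the filter on listed sites. P-values rest on a spread estimated over all 9 libraries and drawn by limma toward that of features with similar mean signal. With 3 libraries per group, they and the SE do not measure the spread of each site alone.

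**Figure D1:**
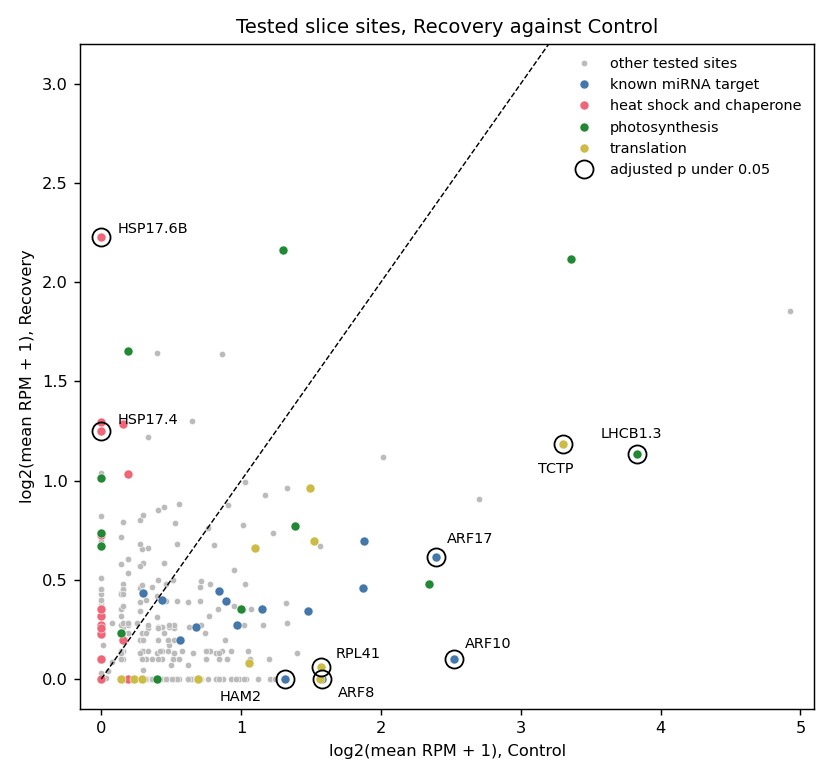
Mean RPM of the 322 tested sites on a log2(mean RPM + 1) scale, Control on the x axis and Recovery on the y axis, with equal values on the dashed line. Of the 9 circled sites with an adjusted p under 0.05, 7 lie below the line at the lower right or along the x axis and 2 heat shock sites lie on the y axis, where Control listed no signal.

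Known miRNA targets, from a list of 131 loci each paired with its miRNA family, had 36 sites listed in the 6 libraries, in 35 loci. Their listings numbered 54 over the Control libraries and 29 over the Recovery libraries. Control alone listed 16 of the sites, Recovery alone 7, and both listed 13, and the mean RPM was lower in Recovery at 28 and higher at 8. Summed over known pairs, Control replicates 1 to 3 had 22.3, 33.8 and 25.9 RPM and Recovery replicates 1 to 3 had 2.04, 6.80 and 6.07 RPM. The groups did not overlap, and the Control mean of 27.3 ± 5.90 RPM was 5.50 times the Recovery mean of 4.97 ± 2.57 RPM (SD, n = 3). As a share of all listed RPM, known targets held 8.66% ± 1.80 in Control and 2.97% ± 1.17 in Recovery, again without overlap. An exact permutation test of 3 against 3 libraries cannot go below 0.1, the value for both measures. In seedlings, fewer cells of a type and less RNA per cell cannot be told apart, nor can less cleavage and less target transcript, since no transcript level enters a slice-site RPM.

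Of these 36 sites 15 were listed often enough to be tested and 21 were not. Among the 15 tested, 4 were called lower and 0 higher, against 2.17% and 0.621% of all tested sites, and the median log2 difference was −0.79 against −0.15. The same 13 of the 15 were lower as deposited and 2 higher in rescaled libraries as well. At 8 of them the lowest Control value exceeded the highest Recovery value, a pattern found at 15.8% of all tested sites. Presence in all 3 Control libraries can by itself bring a site into the test, so these counts describe the tested sites only.

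**Figure D2:**
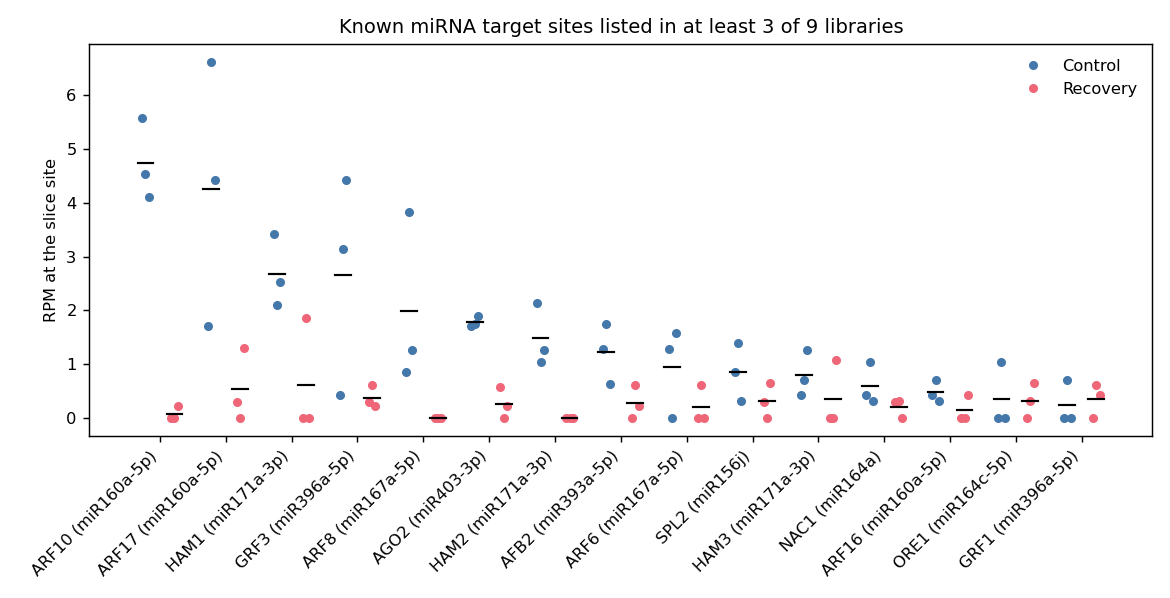
RPM at the 15 tested known target sites, with 1 point for each of the 3 Control and 3 Recovery libraries and a bar at the group mean. Control points of ARF10, at 4.1 to 5.58 RPM, lie far above Recovery points, at 0 to 0.217 RPM, while the points of ORE1 and GRF1 overlap.

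The miR160 targets ARF10, ARF16 and ARF17 are auxin response factors of the repressor class. ARF10 had 5.58, 4.53 and 4.1 RPM in Control replicates 1 to 3 and 0, 0 and 0.217 RPM in Recovery replicates 1 to 3, so that a single read in Recovery replicate 3 was all that remained listed. Its log2 difference of −2.42 ± 0.353 (SE) had an adjusted p of 0.00025 and passed in all 9 fits that left out 1 library. ARF17 had 1.72, 6.63 and 4.42 RPM in Control and 0.291, 0 and 1.3 RPM in Recovery. Its groups did not overlap but came close, at 1.72 RPM in Control replicate 1 and 1.3 RPM in Recovery replicate 3, and the log2 difference was −1.75 ± 0.458 (SE, adjusted p = 0.0397). The third target, ARF16, was near the depth limit throughout, with 0.429, 0.698 and 0.316 RPM in Control and 0, 0 and 0.434 RPM in Recovery, and did not pass (adjusted p = 0.40). At ARF10 and ARF17 the HS means were 0 and 0.641 ± 0.385 RPM, against Recovery means of 0.0723 ± 0.125 and 0.531 ± 0.683 RPM.

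The miR167 targets ARF8 and ARF6 are auxin response factors of the activator class, known for their part in flower and root development. ARF8 had 0.858, 3.84 and 1.26 RPM in Control and no listing in Recovery, and the difference passed (log2 difference −1.45 ± 0.365 SE, adjusted p = 0.0313). ARF6 had 1.29, 0 and 1.58 RPM in Control and 0, 0.618 and 0 RPM in Recovery, which overlapped, and did not pass (adjusted p = 0.319). The log2 difference of a site that a group does not list depends on the pseudocount and is no bound on the fold.

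The 3 HAIRY MERISTEM factors, GRAS-family regulators that keep shoot meristems undifferentiated, share the miR171 site but did not give equal values. HAM1 had 3.43, 2.09 and 2.53 RPM in Control and 0, 1.85 and 0 RPM in Recovery, so that Recovery replicate 2 came close to the lowest Control library. HAM2 had 2.14, 1.05 and 1.26 RPM in Control and no listing in Recovery. HAM3 had 0.429, 0.698 and 1.26 RPM in Control and 0, 0 and 1.08 RPM in Recovery, with overlap. Only HAM2 passed (log2 difference −1.29 ± 0.322 SE, adjusted p = 0.0313), while HAM1 had an adjusted p of 0.0758 and HAM3 of 0.424. The differences between the 3 genes were not tested.

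Other known targets had lower or similar values and did not pass. AGO2, an Argonaute of antiviral defence cleaved through miR403, had 1.72, 1.74 and 1.89 RPM in Control and 0.582, 0 and 0.217 RPM in Recovery, without overlap (log2 difference −1.16 ± 0.396 SE, adjusted p = 0.0869). GRF3, a growth-regulating factor of leaves and target of miR396, had 0.429, 3.14 and 4.42 RPM in Control and 0.291, 0.618 and 0.217 RPM in Recovery (adjusted p = 0.102). AFB2, an auxin receptor and target of miR393, had 1.29, 1.74 and 0.631 RPM in Control and 0, 0.618 and 0.217 RPM in Recovery (adjusted p = 0.184). For AFB2 the groups stood apart by less than 1 read, and for GRF3 they overlapped. SPL2, a phase-change factor and target of miR156, had a mean of 0.856 ± 0.540 RPM in Control and 0.314 ± 0.326 RPM in Recovery. NAC1, a factor of auxin signalling in roots and target of miR164, had means of 0.597 ± 0.393 and 0.20 ± 0.173 RPM. ORE1, the NAC factor of leaf senescence, and GRF1 had the 2 higher log2 values among the tested known sites, 0.03 and 0.15, with overlapping groups. By mean RPM ORE1 was slightly lower in Recovery, so its direction depended on the scale. AGO1 and DCL1 had no listed site in any library.

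Known sites listed in Recovery but in no Control library were single listings. They were LAC4 (0.651 RPM in Recovery replicate 3), a laccase of lignin formation, and LAC17, APS1, AGL16, SPL13A, SPL13B and a second HAM3 site named for miR171b-3p, at 0.291 to 0.464 RPM in 1 library each. Reads of SPL13A and SPL13B, near-identical copies, cannot be assigned to either gene.

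By the authors' own test of each site against its surroundings, known pairs stood out in both groups. Of their lines, 38 of 54 (70.4%) had an adjusted p under 0.05 in Control and 18 of 29 (62.1%) in Recovery, against 25 of 1087 (2.3%) and 21 of 917 (2.29%) of the other lines. The median fold over local background of known pairs was 1.59 in Control and 1.24 in Recovery, and their median Allen score was 2 and 2.5, against 5.5 for other lines in both groups. At ARF10 the fold was 4.6, 5.53 and 5.1 in the Control libraries and 1.22 in the 1 Recovery library that listed it. At ARF17 it was 2.72, 7.63 and 5.42 in Control, and 1.29 and 2.3 in the 2 Recovery libraries. The fold is computed from the same slice-site RPM, so its difference between the groups is not separate from that of the RPM. Over all lines, 16, 21 and 26 passed in Control replicates 1 to 3 and 9, 12 and 18 in Recovery replicates 1 to 3, which overlapped (two-sided exact permutation p = 0.2). Pairs that passed in at least 2 of 3 libraries numbered 15 in Control, of which 11 were known pairs, and 8 in Recovery, of which 4 were known (ARF17, AGO2, NAC1 and SPL2). The pair of miR414 with AT2G24550 passed in 3 of 3 libraries of both groups. The pair of miR414 with HSP90.1 passed in 2 Recovery libraries and no Control library.

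Summed over every line named for a family, 12 of the 138 tested miRNA families were called (8.70%), all 12 lower in Recovery. In 11 of the 12 the lowest Control value exceeded the highest Recovery value, a pattern found in 20.3% of all tested families, and the opposite pattern was found in 2.90%. The exception was miR396, with 2.57, 10.6 and 8.84 RPM in Control and 0.291, 2.78 and 0.651 RPM in Recovery. The 12 were called on these same values, so the order of the groups within them is not separate support. The families are miR160, miR167, miR171 (with miR170) and miR396, which hold conserved targets, and miR858, miR842, miR831, miR847, miR2937, miR3434, miR5012 and miR5662. Known pairs gave 2.94 of the 6.15 RPM Control mean of miR167 and 3.24 of the 7.35 RPM of miR396. For miR171 they gave 4.96 of 6.47 RPM and for miR160 all 9.47 RPM. The rest of these sums came from other sites. In rescaled libraries 11 were called, 6 lower (miR160, miR167, miR831, miR842, miR847 and miR858) and 5 higher (miR390, miR5013, miR5021, miR5658 and miR867). Without Control replicate 3 or Recovery replicate 1 there were 7 calls, and without Recovery replicate 3 there were 6. The family miR160 had 7.72, 11.9 and 8.84 RPM in Control and 0.291, 0 and 1.95 RPM in Recovery, with a log2 difference of −2.73 ± 0.507 (SE, adjusted p = 6.88e-06). The miR167 family had 6.43, 6.98 and 5.05 RPM in Control and 0.873, 0.618 and 0.651 RPM in Recovery (log2 difference −2.05 ± 0.510 SE, adjusted p = 0.00143). Both families passed in all 9 fits without 1 library, as did miR831, miR842 and miR858.

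Several called families were mostly the signal of 1 abundant transcript. Of the miR858 signal, which was 35.8 ± 11.4 RPM in Control and 3.5 ± 0.363 RPM in Recovery, 81.4% was a single ATMG00020 site, and known miR858 targets (MYB12 and MYB111) had 0.375 ± 0.352 RPM in Control and no listing in Recovery. Another ATMG00020 site held 98.4% of the miR2937 signal. The LHCB1.3 site held 92.9% of the miR842 signal, and the LHCB4.1 site 71.6% of the miR5662 signal. Without its leading site miR858 still had 6.43 ± 2.66 RPM in Control and 0.883 ± 0.273 RPM in Recovery, without overlap, while the remainder of miR842 was 0.770 ± 0.675 against 0.339 ± 0.303 RPM and overlapped. Of the miR831 signal, a Control mean of 6.36 RPM, 28.9% was the site of AT3G56020, a gene for ribosomal protein L41. Further miR831-3p sites were in the L41 genes AT3G11120, at 1.95 ± 1.65 RPM in Control, and AT3G08520. These gene copies can share reads, so the miR831 call is not separate from that of AT3G56020. By contrast miR847 spread over 29 sites, with SAG21, a late embryogenesis abundant protein, holding 22.8%. It had 8.25, 7.32 and 7.32 RPM in Control and 2.33, 0.927 and 0.217 RPM in Recovery.

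**Figure D3:**
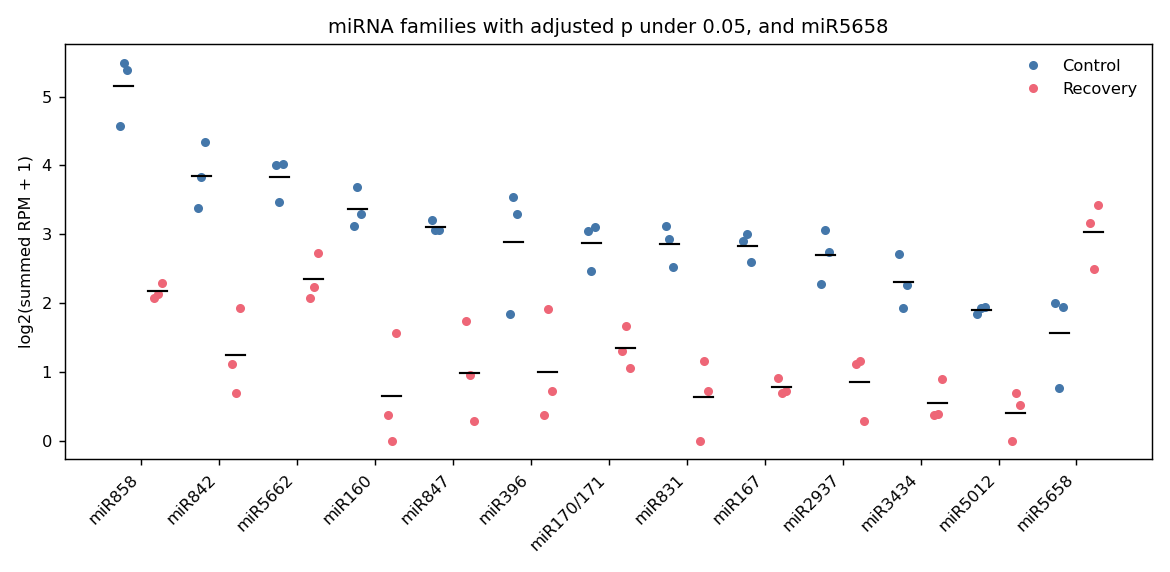
Summed signal of the 12 called miRNA families and of miR5658 on a log2(summed RPM + 1) scale, with 1 point for each of the 3 libraries of a group and a bar at the mean of the log2 values. In 11 of the 12 all Control points lie above the Recovery points, miR396 being the exception, and miR5658 shows the opposite order without passing the test.

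The family closest to a higher call was miR5658. It had 3.0, 0.698 and 2.84 RPM in Control and 7.91, 4.65 and 9.76 RPM in Recovery, without overlap (log2 difference 1.46 ± 0.519 SE, adjusted p = 0.0536), and its largest site, in the carbonic anhydrase gene CA2, held 51.2% of the signal. Its sequence and that of miR414, which was paired with TCTP, J3 and HSP90.1, are shown here because they are runs of short repeats, with the seed in capitals and, in the CA2 site, the bases opposite it.
miR5658: aUGAUGAUgaugaugaugaaa
CA2 site, chr5:4762429-4762449, plus strand, 3′ UTR in exon 10 of 10: catcatcgtcgtcATCATCAt
miR414: uCAUCUUCaucaucaucguca

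Over known pairs alone, 9 families could be tested. Means were lower in Recovery for all 9, and 6 of them (66.7%) had an adjusted p under 0.05 over these 9: miR160, miR167, miR171, miR393, miR396 and miR403. The other 3 were miR156 (with miR157), miR164 and miR858. The family list was chosen with results of these data known, so that this count is not independent evidence of the direction. In rescaled libraries 2 of the 9, miR160 and miR167, passed, and without Recovery replicate 3 there were 3. The known targets of miR171 had 6.0, 3.84 and 5.05 RPM in Control and 0.291, 1.85 and 1.08 RPM in Recovery, without overlap.

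Heat shock and chaperone transcripts kept signal 2 h after the heat. Of 65 loci on the list 16 were listed in the 6 libraries. Their summed signal was 0.858, 1.4 and 0 RPM in Control and 9.02, 16.4 and 8.24 RPM in Recovery, without overlap (0.1 by exact permutation, the smallest value possible), and 71.8, 48.2 and 110 RPM in HS. Among the 17 tested sites 2 were called higher and 0 lower, against 0.621% and 2.17% of all tested sites, with a median log2 difference of 0.23. Values were higher at 15, lower at 1 and equal at 1, against 115 higher and 204 lower of all 322 tested sites. At 6 of the 17 the lowest Recovery value exceeded the highest Control value, a pattern found at 7.14% of all tested sites. Sites that Control does not list can enter the test through HS and Recovery libraries alone. Their value in Recovery can then only be equal or higher, so these counts describe the tested sites only.

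**Figure D4:**
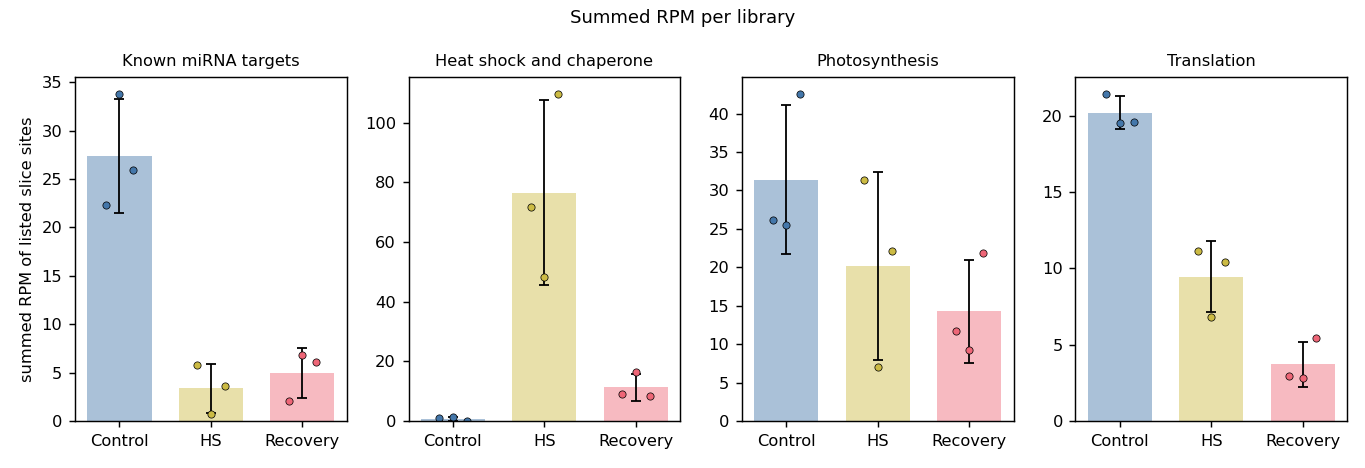
Summed RPM of listed slice sites for 4 gene lists, with bars at the mean of 3 libraries, whiskers of 1 SD and 1 point per library. Known target signal in Recovery, at 2.04 to 6.80 RPM, lies below Control, at 22.3 to 33.8 RPM, while heat shock signal in Recovery, at 8.24 to 16.4 RPM, lies above Control, at 0 to 1.4 RPM, and below HS.

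The small heat shock proteins, chaperones that bind unfolding proteins, led this list. HSP17.6B had 4.37, 4.94 and 1.74 RPM in Recovery and was listed in no Control library (log2 difference 2.15 ± 0.514 SE, adjusted p = 0.0313), beside an HS mean of 10.1 ± 4.69 RPM. HSP17.4 was listed at 2 sites. At the one named for miR5015 it had 1.16, 1.24 and 1.74 RPM in Recovery, none in Control (log2 difference 1.24 ± 0.337 SE, adjusted p = 0.0481) and 1.00 ± 0.0218 RPM in HS. At the one named for miR173-3p it had 0.291, 1.24 and 0.434 RPM in Recovery, which did not pass (adjusted p = 0.373), and 3.22 ± 2.75 RPM in HS. HSP17.8 had 0.873, 2.78 and 0.651 RPM in Recovery, above the 0.349 RPM of its only Control listing, and did not pass (adjusted p = 0.267), beside 26.0 ± 11.7 RPM in HS. HSP17.6A-CI, at 9.76 ± 6.59 RPM in HS, was down to a single read (0.217 RPM) in 1 Recovery library. All 7 tested small heat shock protein sites had higher values in Recovery than in Control, as deposited and in rescaled libraries. Sites listed in no Control library, HSP17.6B and both HSP17.4 sites among them, could not have a lower value under either scaling.

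Of the 10 tested sites of the list outside the small heat shock proteins none passed, and 8 had higher values in Recovery, 1 a lower value and 1 no difference. The lower one was in HSP90.5, a chloroplast chaperone, with 0.429, 0 and 0 RPM in Control and no listing in Recovery (adjusted p = 0.715). FES1A, a nucleotide exchange factor of cytosolic HSP70, had 0.291, 2.78 and 1.3 RPM in Recovery and was listed in no Control library (adjusted p = 0.184), beside 7.27 ± 3.64 RPM in HS. J3, a DnaJ-type co-chaperone, had 1.16, 1.55 and 0.434 RPM in Recovery and 0.429, 0 and 0 RPM in Control (adjusted p = 0.227). The J3 groups stood apart by less than 1 read. HSP70B, HSP90.1 and the mitochondrial small heat shock protein HSP23.6-MITO, with HS means of 4.26 ± 5.34, 1.66 ± 0.640 and 1.91 ± 1.09 RPM, had 0.248 ± 0.223, 0.278 ± 0.314 and 0.169 ± 0.151 RPM in Recovery and were listed in no Control library. The 2 sites of HSP70T-2 were listed in no Control library and in 0 and 1 Recovery libraries. Outside the list, AT4G14270, with 2.52 ± 1.33 RPM in HS, was listed in no Recovery library and in 1 Control library.

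Among photosynthesis transcripts 1 site, in LHCB1.3, was called lower and 0 were called higher, against 2.17% and 0.621% of all tested sites. The list had signal at 10 of 54 loci, 26.2, 25.5 and 42.6 RPM in Control and 11.6, 9.27 and 21.9 RPM in Recovery, without overlap, but in rescaled libraries the mean difference was −2.09 RPM with an exact permutation p of 0.9. Of 12 tested sites 6 had lower and 6 higher values, against 204 lower and 115 higher of all 322. LHCB1.3, a chlorophyll-binding protein of the photosystem II antenna, had 9.43, 12.2 and 18.0 RPM in Control and 0.582, 0.618 and 2.39 RPM in Recovery. Its Control mean was 11.1 times its Recovery mean, a log2 difference of −2.75 ± 0.585 (SE, adjusted p = 0.0187), and the groups did not overlap. LHCB4.1, a minor antenna protein, had 10.3, 5.23 and 12.3 RPM in Control and 2.62, 2.16 and 5.21 RPM in Recovery, which stood apart by less than 0.1 RPM and did not pass (adjusted p = 0.275). The photosystem I subunit gene PSAG showed 0.429, 0 and 0 RPM in Control and 0.873, 0.618 and 4.95 RPM in Recovery (log2 difference 1.22 ± 0.434 SE, adjusted p = 0.101). The ferredoxin gene FED A had 0.291, 0.618 and 0.868 RPM in Recovery and was listed in no Control library (adjusted p = 0.267).

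Carbonic anhydrase transcripts, which encode enzymes that interconvert CO2 and bicarbonate in leaves, had sites with values of opposite order on the same transcript, none of which passed as deposited. At the CA1 site named for miR5024-3p Control had 2.57, 5.23 and 4.42 RPM and Recovery 0, 0.309 and 0.868 RPM (log2 difference −1.88 ± 0.570 SE, adjusted p = 0.0769). At its site at position 1200, named for miR5658, Control listed nothing and Recovery had 1.16, 1.24 and 0.651 RPM (log2 difference 1.00 ± 0.319 SE, adjusted p = 0.0835). The neighbouring site at position 1175 had 1.16, 0.618 and 0.217 RPM in Recovery only. Position 1200 passed in rescaled libraries. CA2 had 2.14, 0.349 and 1.89 RPM in Control and 2.91, 1.85 and 5.64 RPM in Recovery at the miR5658 site, with overlap (adjusted p = 0.275). Of 18 loci with more than 1 tested site, 7 had sites whose log2 differences were of opposite sign.

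**Figure D5:**
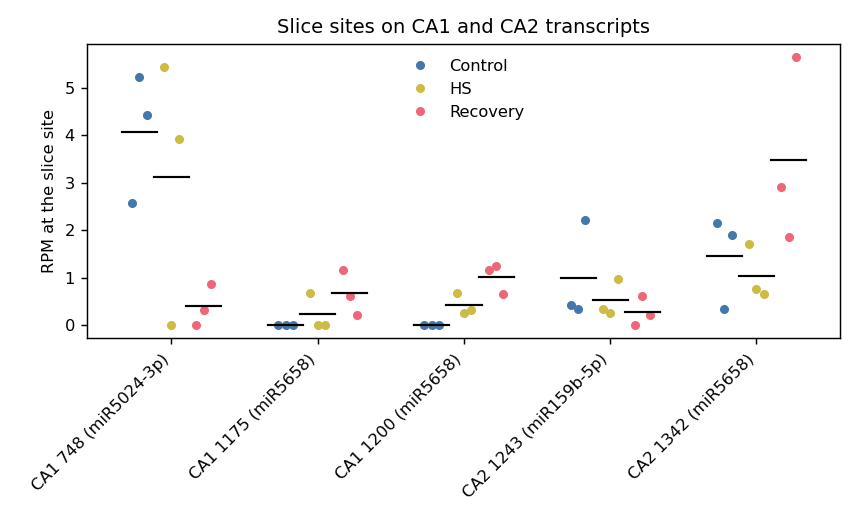
RPM at the 5 tested sites of CA1 and CA2, named by position on the transcript and miRNA, with 1 point for each library of the 3 groups and a bar at the mean. At CA1 the miR5024-3p site has a higher mean in Control (4.07 RPM) than in Recovery (0.392 RPM), and both miR5658 sites have points above 0 in Recovery and none in Control.

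Transcripts on the translation list, which holds translation factors, poly(A)-binding proteins, ribosomal protein L41 and the growth regulator TCTP, had lower values. This list, like the others, was chosen with earlier results of these data known, so its counts are not independent evidence of the direction. The list summed to 21.4, 19.5 and 19.6 RPM in Control and 2.91, 2.78 and 5.42 RPM in Recovery, a Control mean 5.45 times the Recovery mean without overlap. All 11 tested sites had a lower value in Recovery as deposited (9 of 11 in rescaled libraries), against 204 of all 322 tested sites as deposited and 164 in rescaled libraries. Of these sites, 6 were in 3 genes of the elongation factor EF1A and 3 in genes for ribosomal protein L41. Such gene copies can share reads, so the 11 are not separate observations. Of the 11, 2 were called lower, against 2.17% of all tested sites. The difference was smaller in a set taken by product name, ribosomal proteins not named for an organelle. Its sum was 13.1 ± 2.23 RPM in Control and 4.54 ± 2.68 RPM in Recovery (SD), a Control mean 2.89 times the Recovery mean. Of its 18 tested sites 14 had lower and 4 higher values, and 1 was called lower. TCTP, the translationally controlled tumour protein that promotes growth, had 7.72, 9.42 and 9.47 RPM in Control and 1.16, 0.927 and 1.74 RPM in Recovery, a Control mean 6.95 times the Recovery mean (log2 difference −2.13 ± 0.529 SE, adjusted p = 0.0313). Its HS libraries, at 3.01 to 6.19 RPM, lay between the groups. Of the genes for ribosomal protein L41, AT3G56020 had 1.38, 3.02 and 1.52 RPM in Control and 0, 0.133 and 0 RPM in Recovery (log2 difference −1.47 ± 0.349 SE, adjusted p = 0.0313), and AT3G11120 had 3.86, 1.05 and 0.947 RPM in Control and none in Recovery (adjusted p = 0.0769). L41 genes and the 3 elongation factor EF1A genes carry fractions of reads, as shared reads do, so that values of single copies are uncertain.

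The locus test, on RPM summed over all sites of a gene, called 9 of 333 loci (2.70%), 8 lower and 1 higher. They were the genes of the called sites without HSP17.4 (adjusted p = 0.0517), and ATMG00020. ATMG00020 had 23.2, 43.9 and 37.6 RPM in Control and 3.78, 4.64 and 5.21 RPM in Recovery (log2 difference −2.66 ± 0.722 SE, adjusted p = 0.0249), while its HS libraries ran from 4.27 to 49.7 RPM. At its site at position 1364 the order was the opposite, with 0.582, 0.618 and 1.95 RPM in Recovery and nothing listed in Control. In rescaled libraries 4 loci were called, 2 lower and 2 higher. The count was 1 without Recovery replicate 1, 2 without Control replicate 2, 3 without Recovery replicate 2 and 5 without Recovery replicate 3.

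Few sites were present throughout one group and missing in the other. Of the 1662 sites 18 (1.08%) were listed in all 3 Control libraries and no Recovery library, and 16 (0.963%) in all 3 Recovery libraries and no Control library. Beside ARF8 and HAM2, the Control-only sites with the largest means were AT3G11120 (1.95 ± 1.65 RPM), the ribosomal protein gene BBC1 (1.36 ± 0.634 RPM), the tubulin gene TUB5 (1.05 ± 0.965 RPM), AT3G52230 (1.03 ± 0.70 RPM), the cell wall expansin EXPA1 (0.977 ± 0.296 RPM), AT5G52840 (0.950 ± 0.0944 RPM), the hypoxia response factor RAP2.12 (0.913 ± 0.433 RPM) and TGG1 (0.899 ± 0.721 RPM), a myrosinase of glucosinolate breakdown. Beside the heat shock, CA1, ATMG00020 and FED A sites given above, the Recovery-only sites with the largest means were PDE334 (0.768 ± 0.420 RPM), a chloroplast ATP synthase subunit, and AT2G39020 (0.617 ± 0.0343 RPM), an acyltransferase-like gene. None of these passed the site test other than ARF8, HAM2, HSP17.6B and the miR5015 site of HSP17.4. Of the 16 Recovery-only sites 6 were listed in no HS library either, and of the 18 Control-only sites 4 were. Any 2 libraries of a group shared 0.166 to 0.205 of their combined sites, and a Control and a Recovery library 0.0940 to 0.147.

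The calls other than ARF10 depended on single libraries. Of the 9 fits without 1 library, ARF8, ARF17, AT3G56020 and LHCB1.3 passed in 5 each, HAM2 and HSP17.6B in 4 each, TCTP in 3 and HSP17.4 in 2. The highest adjusted p over the alternatives was 0.140 for ARF8, 0.25 for ARF17 and TCTP, 0.149 for AT3G56020, 0.129 for LHCB1.3, 0.130 for HAM2, 0.241 for HSP17.6B and 0.335 for HSP17.4. Leaving out Recovery replicate 1 or 2 removed the call of all 8, and leaving out Control replicate 2 that of all 8.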

How the data were processed

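Total RNA of whole seedlings was made into nanoPARE libraries, 3 per group. The authors ran the published nanoPARE pipeline, on build TAIR10 per the labels. For its version and aligner settings, nothing is given in the sources used here. Each library has its own deposited list, with the RPM at the slice site (reads scaled to library size by the authors), a fold (the deposited ratio of slice-site RPM plus 1 to local background RPM plus 1), an adjusted p-value of the authors' pipeline and the Allen score deposited by the authors. A fraction of values was no whole multiple of 1 read (91.5% to 94.4% were, within 0.01 of a read), so no count model was used. PCR copies cannot be told from separate molecules.

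Sites, loci and family sums listed in at least 3 of the 9 libraries were compared on log2(RPM + 1) by limma 3.58.1 (R 4.3.3, eBayes with a trend, all 9 libraries, Benjamini-Hochberg adjustment, threshold 0.05). Differences are on that scale, which understates changes of low sites. Values per library were compared by two-sided exact permutation (SciPy 1.17.1). Alternatives were the pseudocount, filter, scaling, trend, libraries and replicate block. The limma function was tested on simulated data. Members and gene lists were chosen with earlier results of these data known. Genes were named if called, if known pairs were listed in at least 3 of the 6 libraries, if among the largest of a list, if listed in all of 1 group and none of the other, or if called in HS against Control. HS and Recovery share the Control libraries. RefSeq annotated the listed loci except the few without an entry. Target sites were found by matching the miRNA to the RefSeq transcript at the deposited Allen score, and deposited positions did not always equal matched ones.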

Additional observations from a re-analysis of the deposited data

How the results depend on the processing

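Counts of calls moved with several choices, and the cause was not tested beyond the numbers of sites and libraries each setting leaves. Without a filter 4 of 1662 sites and 5 of 1508 loci were called, and with only the 6 Recovery and Control libraries 14 of 196 sites. Without the variance trend 16 sites were called. Rescaled libraries gave 5 sites, 4 loci and 2 known-target families. Restricted to pairs that passed the authors' own test in a library, 5 of 12 families were called. Restricted in this way, 7 of 24 sites were called, all 7 lower and in known targets (ARF10, ARF17, ARF8, HAM1, HAM2, AGO2 and GRF3). A pass in Control libraries alone can bring a site into that set. Leaving out 1 of the 9 libraries gave 1 to 14 sites, 1 to 13 loci, 6 to 15 families and 3 to 6 known-target families. No called site, locus or family changed direction in any alternative that tested it. ARF10 and the families miR160, miR167, miR831, miR842 and miR858 passed in all alternatives that tested them.

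The replicate numbers were not treated as pairs in the main fit. Deviations of same-numbered Control and Recovery libraries had correlations of −0.0978, −0.0271 and 0.0449. Most sites rest on 1 read or a few, so these values cannot show whether the libraries were paired. With a replicate block 11 sites were called, 10 lower and 1 higher (HSP17.6B), so that the HSP17.4 site was no longer called, and 12 loci, 12 families and 6 known-target families passed. The 6 values per library kept their direction within replicate numbers (exact sign-flip permutation p = 0.25, the smallest value 3 pairs allow), when any 1 library was left out and, where run, in rescaled libraries or at an Allen score of at most 4. Depth limits single sites, most of which rest on 1 read or a few.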

Other observations

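Sites with a strong duplex outside the known pairs were looked at after the values had been seen, and their difference from the known targets was not tested. Lines with an Allen score of at most 3 made up 4.62%, 4.88% and 5.32% of the lines outside known pairs in Control replicates 1 to 3 and 8.98%, 8.90% and 9.25% in Recovery replicates 1 to 3, and 3.22% to 8.39% in HS. Of the 21 such sites that were tested, 16 had a higher and 5 a lower log2 value in Recovery, against 115 and 204 of all 322 tested sites. Of the 21, 0 were called, against 2.80% of all tested sites, and at 6 the lowest Recovery value exceeded the highest Control value, against 7.14%. Named for miR414 were 15 of the 21. The largest differences were at J3, PDE334 and the CA1 site at position 1175, given above, and at AT2G39020, with 0.582, 0.618 and 0.651 RPM in Recovery and no Control listing.

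Lines named for miR5021 numbered 18, 10 and 13 in Control and 22, 34 and 40 in Recovery, while those for miR5658 numbered 3, 2 and 4 in Control and 11, 7 and 14 in Recovery. Lines named for miR414, the most frequent of these, overlapped, with 66, 69 and 65 in Control and 44, 72 and 78 in Recovery. Their summed signal was 61.1, 47.8 and 52.0 RPM in Control and 27.3, 40.0 and 40.8 RPM in Recovery. For miR5021 the summed signal overlapped, at 4.53 to 11.2 RPM in Control and 8.19 to 15.2 RPM in Recovery. Recovery libraries had more implied reads than Control libraries, and the part of depth in these line counts was not tested.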
